A study of Mus musculus with 14 samples.

Results

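Newborn mouse epidermis was compared between 4 p63beta and 4 p63alpha libraries, 8 of the 14 libraries of the series; the other 6 came from cultured keratinocytes and are used only as values set beside those of epidermis. The p63alpha group has the genotype Trp63-Ex13fl/fl, in which exon 13 of Trp63 is flanked by loxP sites but kept. The p63beta group is KRT14-Cre; Trp63-Ex13fl/fl, so both groups carry the floxed exon and only p63beta carries the recombinase. The KRT14 promoter drives Cre in basal keratinocytes, and cells of other lineages in the sample are not its target. Both groups are newborn pups, and the epidermis was parted from the dermis after a night in trypsin. Columns named KO were read as p63beta and columns named WT as p63alpha. Whether each library is a pup of its own is not stated in the labels, so p-values measure the spread between libraries, which may in part be technical.

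p63 is the transcription factor that basal keratinocytes need to form and keep a stratified epidermis. Alternative splicing at the 3′ end of Trp63 gives the alpha, beta and gamma C-termini, and a second promoter gives the deltaN forms that dominate in basal cells. The alpha C-terminus holds a sterile alpha motif domain and a transactivation inhibitory domain, which the beta form lacks.

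Exon 13 is the piece that separates these forms, and it is shown here because its presence in the RNA is the first check of the labels. It spans chr16:25886206-25886299 (GRCm38, plus strand), is the second to last exon of the full-length gene model and is 94 bases long. The capitals mark exon 13, and the lower case letters on each side are the last 15 bases of exon 12 and the first 15 of exon 14. The second sequence is the junction left when exon 12 is joined to exon 14. Both were read from the GENCODE M21 transcripts.
Exon 13 with its flanks: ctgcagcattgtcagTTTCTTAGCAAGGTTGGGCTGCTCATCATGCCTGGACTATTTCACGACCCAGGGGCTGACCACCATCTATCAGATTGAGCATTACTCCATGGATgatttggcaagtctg
Exon 12 joined to exon 14: ctgcagcattgtcaggatttggcaagtctg

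Trp63 transcripts with the alpha ending gave way to transcripts with the beta ending in p63beta epidermis. Libraries are listed throughout in the order EP07, EP08, WT3, EP09 for p63alpha and KO2, EP10, EP11, EP12 for p63beta. The alpha ending took 81.2, 83.4, 80.8 and 85.5% of the Trp63 TPM in p63alpha and 11.7, 2.9, 2.5 and 2.15% in p63beta. The beta ending took 13, 9.28, 9.5 and 9.06% in p63alpha and 79.7, 88, 90.5 and 82% in p63beta. The gamma ending took 5.8, 7.28, 9.71 and 5.42% and 8.6, 9.08, 7.0 and 15.8%. The alpha and beta shares did not overlap between the groups, and KO2 kept the highest alpha share among the p63beta libraries. The alpha share differed by -77.9 percentage points between the group means, with a two-sided exact permutation p of 0.0286, the smallest that 4 and 4 libraries allow. Transcripts from the upstream TA promoter were listed at 0 in every library, so all of the Trp63 RNA quantified was of the deltaN kind.

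One of the 2 alpha-ending deltaN transcripts of Trp63 was at 64.2, 50.7, 37.5 and 107 TPM in p63alpha and at 0 in all 4 p63beta libraries, which is at least 1749-fold lower against a floor of 3 counts per library, and at least 1377-fold without EP09, its highest library. The other was at 81, 78.5, 30.7 and 116 TPM in p63alpha and still at 19.6, 6.16, 6.69 and 6.56 TPM in p63beta. These 2 transcripts differ by 12 bases in annotated length, so the split of reads between them is an estimate, and so is the fall of either alone. Summed over both, the alpha ending lay at 68.1 to 223.0 TPM in p63alpha and 6.16 to 19.6 TPM in p63beta. The source of this remaining alpha-ending signal was not tested. The beta-ending transcript rose from 23.3, 14.4, 8.01 and 23.6 TPM to 134, 187, 242 and 249.9 TPM (log2 fold change 3.66, SE 0.33, edgeR adjusted p = 0.00658). Its annotated match ends in alpha, and it was assigned to beta because its effective length was 94 bases shorter than that of an alpha-ending transcript with the same match, the length of exon 13. Summed over transcripts, Trp63 was at 486, 374, 259 and 631 CPM (counts scaled to the size of the library) in p63alpha and 545, 546, 706 and 765 in p63beta, ranges that overlap, and the sum did not pass the test (log2 fold change 0.55, SE 0.26, edgeR adjusted p = 0.9999).

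**Figure D1:**
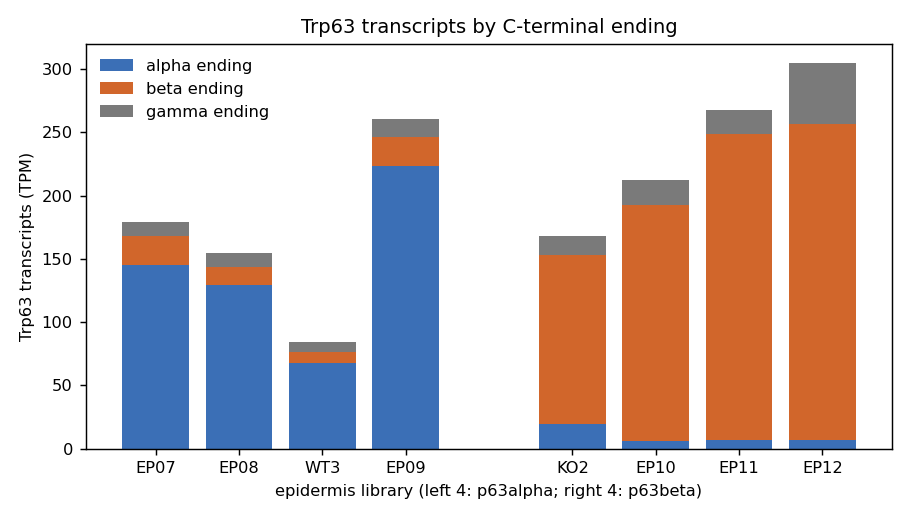
Stacked bars give the TPM of Trp63 transcripts by ending in each of the 8 epidermis libraries, with p63alpha on the left and p63beta on the right. The alpha ending fills most of each p63alpha bar, at 68.1 to 223.0 TPM, and 6.16 to 19.6 TPM of each p63beta bar.

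The libraries held 21290068 to 44909629 estimated counts. Keratinocyte markers were abundant in all of them: Krt5, a basal keratin, lay at 2644 to 7047 TPM and Krt10, a suprabasal keratin, at 35087 to 55438 TPM. Lists of genes for some other cell types had lower sums. Over the libraries the summed TPM was 74.0 to 286 for 15 Langerhans and myeloid genes, 22.8 to 65.9 for 10 heart muscle genes and 4.73 to 56.9 for 8 adipocyte genes. Within those lists Cd207, Myh6 and Adipoq, chosen as markers of Langerhans cells, heart muscle and adipocytes, were each at most at 0.201 TPM. The sums alone thus do not show that these cells were present. Cd207 does not cover the other myeloid cells of its list, and their presence was not tested. RNA of other cells was found in every library. Dcn of fibroblasts lay at 46.5 to 151 TPM and Col1a1 at 0.495 to 4.67 TPM. Hba-a1 of blood lay at 52.9 to 294 TPM and Cd3e of T cells at 0.558 to 6.70 TPM. The first principal component, 32.3% of the variance, set WT3 and EP12 apart from the other 6 libraries. Those 2 libraries, 1 of each genotype, had a summed TPM of 7343 and 7269 for 16 basal keratinocyte genes, against 12049 to 17720 in the others. EP09 stood apart on the second component (20.4%). EP09 and EP11, again 1 of each genotype, held Ddx3y of the Y chromosome at 84.4 and 99.5 CPM, whereas it lay between 0 and 5.62 CPM in the other libraries. Column names carry 2 batch tags: WT3 and KO2 share one, and the other 6 libraries are tagged 02HZ.

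Few genes were called between the genotypes by edgeR, and nearly all of those called were higher in p63beta. edgeR tested 13796 genes and called 32 at an adjusted p under 0.05, which is 0.232% of the genes tested. Of these, 30 rose (0.217%) and 2 fell (0.0145%). All 32 had groups that did not overlap, a pattern shown by 3.07% of the genes tested. Among the 30 that rose, 24 did so at least 4-fold and 12 had a mean under 1 CPM in p63alpha. The median log2 fold change over all genes tested was -0.0039. The count depended on which libraries entered: leaving out EP07 gave 10 called genes, leaving out EP08 gave 19, KO2 18, EP10 16 and EP11 18. Without WT3 and EP12 it was 33, of which 23 were among the 32, and without EP09 and EP11 it was 10, all among the 32. The count also depended on the test: DESeq2 called 141 of the 13796 genes, 108 higher and 33 lower. A gene that was not called is not shown to be unchanged.

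**Figure D2:**
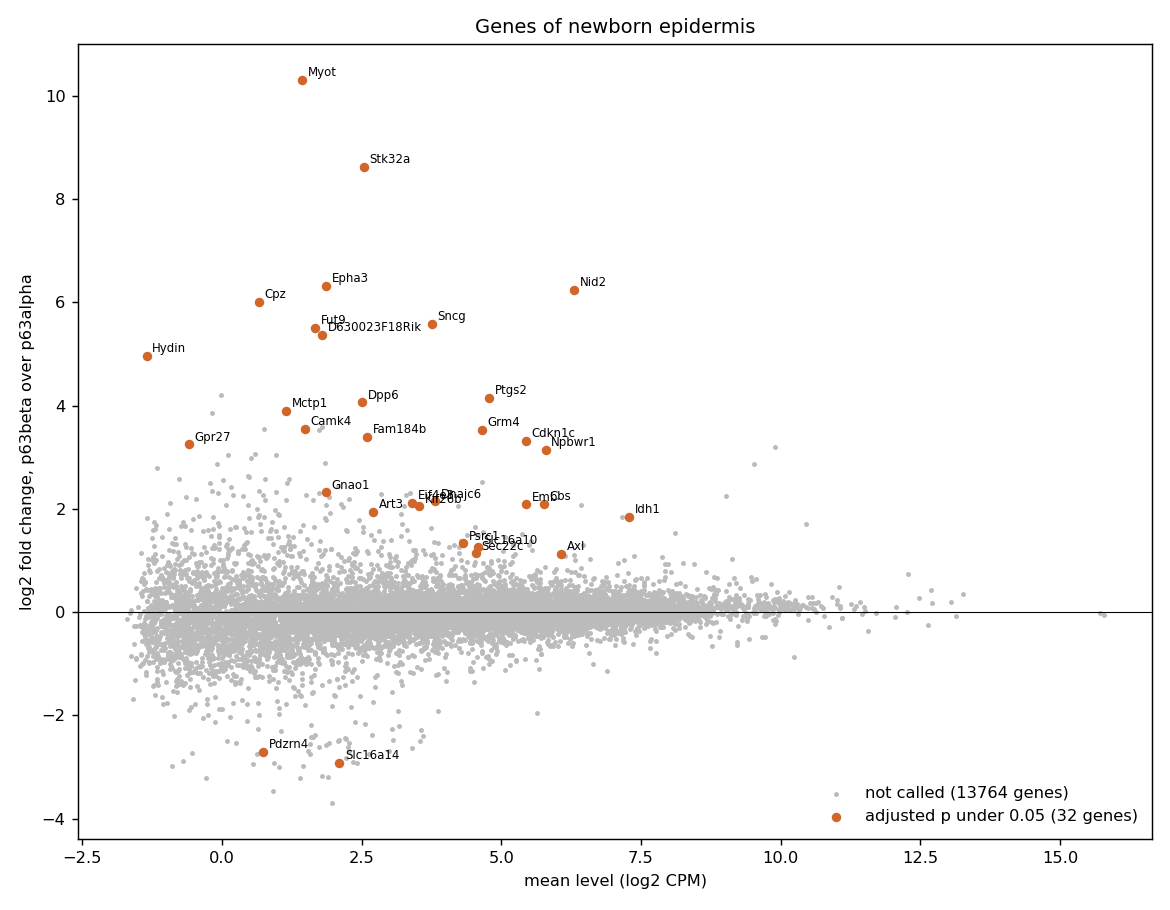
Each point is a gene of epidermis, with its mean level (log2 CPM) on the horizontal axis and its log2 fold change, p63beta over p63alpha, on the vertical axis; the 32 called genes are coloured and named. Of these, 30 lie above 0 and 2 below, and the fitted value of Myot is no bound because p63alpha held no count of it.

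**Figure D3:**
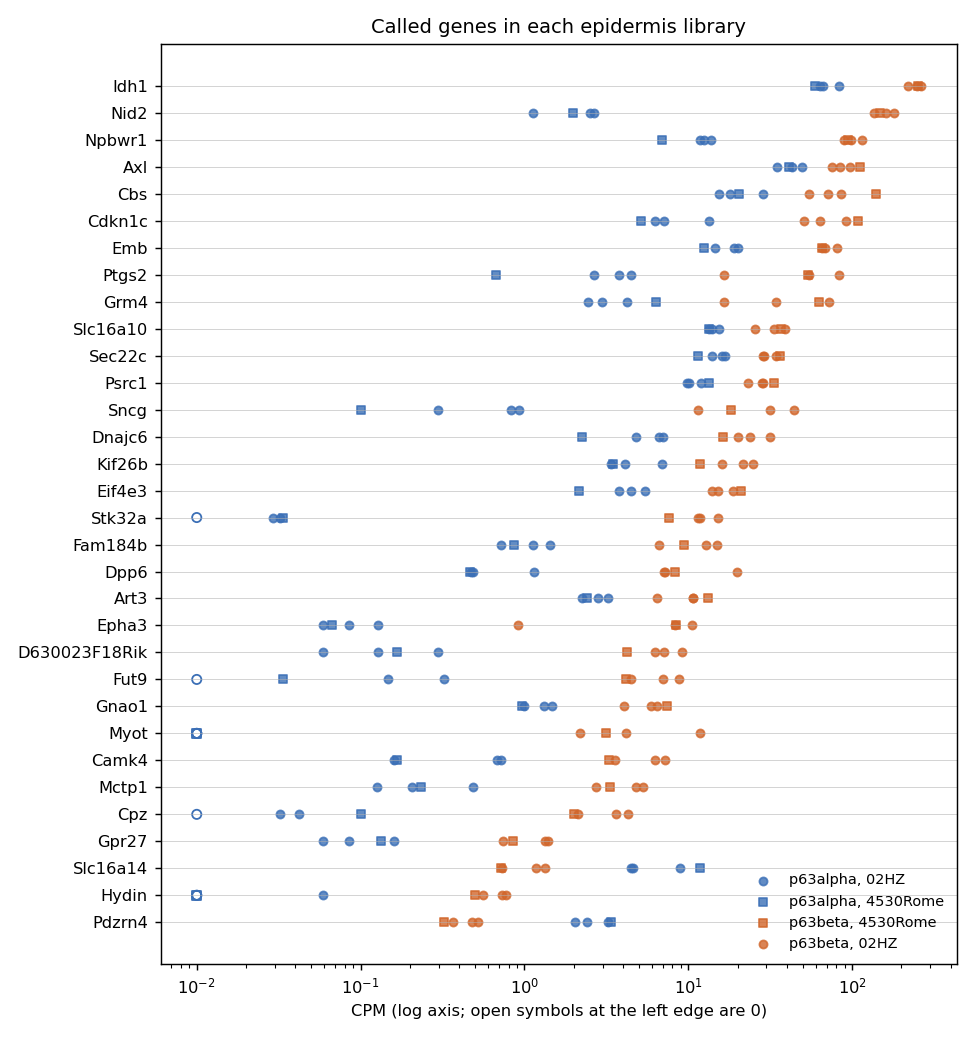
CPM (log axis) of the 32 called genes in each epidermis library, with p63alpha in blue, p63beta in orange, circles for 02HZ and squares for the batch of WT3 and KO2; open symbols at the left edge are 0. In every row the 4 blue and the 4 orange symbols do not overlap.

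Several called genes encode proteins of the cell surface or the extracellular space, and Nid2 had the lowest adjusted p of all genes. Nid2 encodes nidogen 2, a basement membrane protein that binds laminin and type IV collagen, and lies at chr14:19751257-19811787 (GRCm38). It was at 2.53, 1.13, 1.97 and 2.66 CPM in p63alpha and at 149, 160.2, 136 and 179.9 CPM in p63beta (log2 fold change 6.24, SE 0.28, edgeR adjusted p = 7.81e-06). Nid2 was thus barely present in every p63alpha library and at a like level in all 4 p63beta libraries. Cpz, a secreted carboxypeptidase, was at 0, 0.0322, 0.10 and 0.0422 CPM and 1.99, 4.27, 3.62 and 2.12 CPM (log2 fold change 6.0, SE 0.68, edgeR adjusted p = 0.00592). Emb encodes embigin, a membrane partner of monocarboxylate transporters, and was at 14.6, 20, 12.5 and 19.1 CPM against 65.9, 65.8, 68.5 and 80.9 CPM (log2 fold change 2.09, SE 0.19, edgeR adjusted p = 0.00131). Art3, of the ADP-ribosyltransferase family, rose by 1.94 on the log2 scale (SE 0.28). Nid2 and Emb remained called when any 1 library was left out, as did Cpz, whereas Cpz missed the threshold without EP09 and EP11 (adjusted p = 0.079) and Art3 stayed called in 1 of the 8 such fits.

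Other called genes encode receptors and their transducers. Npbwr1 is a receptor for neuropeptides B and W (chr1:5913707-5917398). Its level was 13.8, 11.8, 6.88 and 12.5 CPM in p63alpha and 94.9, 99.1, 89.3 and 115 CPM in p63beta (log2 fold change 3.14, SE 0.23, edgeR adjusted p = 0.000254). Grm4, a metabotropic glutamate receptor, was at 2.44, 4.21, 6.38 and 2.95 CPM and 62.8, 34.2, 16.6 and 72.1 CPM (log2 fold change 3.54, SE 0.49, edgeR adjusted p = 0.0188), with a wide spread among the p63beta libraries. Epha3, a receptor tyrosine kinase for ephrins, was at 0.0588, 0.129, 0.0668 and 0.0844 CPM and 8.45, 10.5, 8.3 and 0.909 CPM (log2 fold change 6.32, SE 0.78, edgeR adjusted p = 0.00918). Here EP12 lay below 1 CPM while the other p63beta libraries exceeded 8. Axl, the receptor of Gas6, went from 35, 49.5, 41.3 and 43.2 CPM to 112, 96.9, 84.2 and 75.4 CPM (log2 fold change 1.13, SE 0.17, edgeR adjusted p = 0.0301), the smallest rise of the 30. Gnao1, the alpha subunit of the G protein Go, rose by 2.32 on the log2 scale (SE 0.31). Gpr27, an orphan receptor, rose by 3.25 (SE 0.50), and its annotated span overlaps that of Eif4e3 by 506 bases, so reads of this pair, both called, may be shared between them. Most of these calls rested on the full set of libraries. Npbwr1 stayed called without any 1 library and Epha3 in 7 of the 8 such fits, failing without EP07 (adjusted p = 0.0787). Grm4 stayed called in 4 of the 8, Gnao1 in 3, and Axl and Gpr27 in 1 each, with adjusted p up to 0.103, 0.103, 0.128 and 0.152. With batch as a term Gpr27 missed the threshold (edgeR adjusted p = 0.0556).

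The serine/threonine kinase Stk32a was nearly silent in p63alpha, at 0.0294, 0.0322, 0.0334 and 0 CPM, and lay at 7.58, 11.8, 15.2 and 11.5 CPM in p63beta. Its 3 counts over all p63alpha libraries against 1338 in p63beta give a ratio of 425, with a 95% exact interval of 145 to 2061 that covers counting error only (edgeR adjusted p = 3.37e-05). Camk4, a calcium/calmodulin-dependent kinase, was at 0.676, 0.161, 0.167 and 0.717 CPM and 3.27, 7.17, 6.29 and 3.55 CPM (log2 fold change 3.55, SE 0.58, edgeR adjusted p = 0.0429). Mctp1, a membrane protein with calcium-binding C2 domains, rose by 3.91 (SE 0.47), and Dpp6, an accessory subunit of potassium channels, by 4.06 (SE 0.49), both on the log2 scale. Sncg, gamma-synuclein, was at 0.823, 0.933, 0.10 and 0.295 CPM and 18.3, 44.3, 31.7 and 11.5 CPM (log2 fold change 5.58, SE 0.66, edgeR adjusted p = 0.00835). Dnajc6 encodes auxilin, which uncoats clathrin vesicles, and rose by 2.15 (SE 0.36). Sec22c, of the endoplasmic reticulum to Golgi route, rose by 1.14 (SE 0.18). Stk32a kept its call without any 1 library, as did Sncg, and Camk4 and Sec22c lost theirs in each such fit. Mctp1 and Dpp6 missed the threshold without EP07 (adjusted p = 0.0728 for each), and Dnajc6 stayed called in 1 of the 8 fits.

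Idh1, the cytosolic isocitrate dehydrogenase that makes NADPH, was at 83.4, 64, 59 and 66.3 CPM in p63alpha and 251, 249, 219 and 264 CPM in p63beta (log2 fold change 1.85, SE 0.15, edgeR adjusted p = 0.000747). The unnamed gene D630023F18Rik lies 35.3 kb from Idh1 on chromosome 1, with no tested gene starting between them. D630023F18Rik was at 0.0588, 0.129, 0.167 and 0.295 CPM and 4.21, 7.12, 6.26 and 9.13 CPM (log2 fold change 5.37, SE 0.50, edgeR adjusted p = 0.00138). Cbs, the cystathionine beta-synthase of the transsulphuration pathway, was at 15.4, 17.9, 20.4 and 28.7 CPM and 139.7, 70.8, 54.8 and 85.9 CPM (log2 fold change 2.09, SE 0.30, edgeR adjusted p = 0.0226). Ptgs2 encodes cyclooxygenase 2, the inducible enzyme of prostaglandin synthesis, and was at 3.79, 4.5, 0.668 and 2.66 CPM against 53.5, 54.7, 83 and 16.4 CPM (log2 fold change 4.15, SE 0.62, edgeR adjusted p = 0.0301). The lowest Ptgs2 value of each genotype came from WT3 and EP12. Fut9, a fucosyltransferase that makes the Lewis x epitope, was at 0.147, 0.322, 0.0334 and 0 CPM and 4.16, 6.96, 8.84 and 4.5 CPM (log2 fold change 5.51, SE 0.74, edgeR adjusted p = 0.0165). Idh1 and D630023F18Rik stayed called without any 1 library, Fut9 in 5 of the 8 such fits, Cbs in 3 and Ptgs2 in 2, with adjusted p up to 0.103, 0.111 and 0.128 for the latter 3.

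Among regulators of division, the cytoskeleton and translation, Cdkn1c (p57, a cyclin-dependent kinase inhibitor) was at 6.29, 7.07, 5.11 and 13.3 CPM in p63alpha and 109, 92.1, 63.6 and 51.1 CPM in p63beta (log2 fold change 3.31, SE 0.35, edgeR adjusted p = 0.00397). None of the other 5 tested inhibitors of this kind was called, which is near the 0.232% called over all genes. Cdkn1a had a log2 fold change of 0.36 (SE 0.22). Psrc1, a spindle microtubule protein, rose by 1.33 (SE 0.19), the kinesin Kif26b by 2.05 (SE 0.32) and the cap-binding factor Eif4e3 by 2.12 (SE 0.30) on the log2 scale. Fam184b, whose role is not described here, was at 1.44, 1.13, 0.869 and 0.717 CPM and 9.4, 15, 12.8 and 6.66 CPM (log2 fold change 3.39, SE 0.36, edgeR adjusted p = 0.00397). Myot encodes myotilin, a Z-disc protein of striated muscle. It had no count in p63alpha and was at 3.14, 4.19, 2.19 and 11.8 CPM in p63beta, a rise of at least 49.7-fold when each p63alpha library is given a floor of 3 counts, or at least 29.4-fold higher without EP12 (edgeR adjusted p = 0.0195). With batch as a term Myot missed the threshold (edgeR adjusted p = 0.0521). Among 19 listed skeletal muscle genes only 4 passed the filter. Acta1, muscle actin, lay at 0.0322 to 0.633 CPM in p63alpha and 0.606 to 6.92 CPM in p63beta without passing the edgeR test. DESeq2, which called 141 of all 13796 genes, called Acta1 (DESeq2 adjusted p = 0.0075). Hydin, of motile cilia, had 2 counts in p63alpha, all in EP07, and 75 in p63beta. The ratio was 35.7, with a 95% exact interval of 9.54 to 300.2 that covers counting error only. Hydin lost its call when any 1 library was left out and with batch as a term (edgeR adjusted p = 0.067). Cdkn1c and Fam184b stayed called without any 1 library, Myot in 5 of the 8 such fits, Psrc1 and Eif4e3 in 3 and Kif26b in 2.

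Only 2 of the genes called by edgeR fell. Slc16a14, an orphan member of the monocarboxylate transporter family, was at 8.91, 4.5, 11.8 and 4.6 CPM in p63alpha and 0.723, 1.34, 0.731 and 1.17 CPM in p63beta (log2 fold change -2.91, SE 0.42, edgeR adjusted p = 0.0217). Pdzrn4, a protein with PDZ and RING domains, was at 3.23, 2.41, 3.37 and 2.03 CPM and 0.324, 0.366, 0.477 and 0.519 CPM (log2 fold change -2.71, SE 0.36, edgeR adjusted p = 0.0165). Neither was called in the 02HZ libraries alone, where their adjusted p was 0.168 and 0.163, and they stayed called in 3 and 4 of the 8 fits without 1 library.

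Because 14 of the called genes belong to families that were listed, their relatives can be set beside them, though many of these lists were drawn up around called genes. The share called over all genes was 0.232%, and since the called genes shaped the lists, nothing is read from the counts that follow. In the monocarboxylate transporter list 2 of 11 tested genes rose, Emb and Slc16a10, and Slc16a14 fell. Slc16a10 carries aromatic amino acids and was at 13.3, 15.5, 13.4 and 14 CPM in p63alpha and 36.6, 33.2, 25.6 and 38.7 CPM in p63beta. Slc16a11 had a log2 fold change of 2.58 (SE 0.43) and missed the threshold (edgeR adjusted p = 0.0514), which it passed in 5 of 19 other settings, among them the fit without EP12 (adjusted p = 0.0127). Slc16a10 stayed called in 2 of the 8 fits without 1 library. Of 23 tested basement membrane and hemidesmosome genes Nid2 alone was called, and the median log2 fold change of the list was 0.07. In that list Lama5, a laminin chain, had 0.54 (SE 0.24) and Frem1, of the Fraser complex, -0.66 (SE 0.22). Of 18 Eph receptors and ephrins Epha3 alone was called, and Axl was called among 5 genes of its receptor group while its ligand Gas6 had a log2 fold change of -0.29 (SE 0.16). In the prostaglandin and SOCS list Ptgs2 was called among 18 genes. The prostaglandin D2 synthase Ptgds (1.25, SE 0.26) and the receptor Ptger4 (-1.34, SE 0.29) had groups without overlap but were not called, except with DESeq2.

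Genes that define the epidermal layers are described here by their values, because 0.232% of all genes were called and lists of this size would hold few or no calls at that share. None was called among 16 basal, 16 spinous, 40 granular and cornified, 30 barrier lipid and 12 desmosomal genes, which is near that background. Their median log2 fold changes were 0.06, -0.06, 0.30, 0.11 and -0.02, beside -0.0039 for all genes. In the granular and cornified list 36 of 40 values were above 0, against 49.3% of all genes, and 3 had an unadjusted p under 0.05, where 4.64% of all genes had. These 3 were Nccrp1, Cnfn and Sprr1a, with log2 fold changes of 0.61, 0.78 and 0.94. The median of this list ranged from 0.16 to 0.42 over the other settings run, with 0.16 without KO2 and 0.17 without EP09. Nor was a gene called among 30 cell cycle genes, 19 p53 targets or 29 p63 targets and partners, again near the 0.232% of all genes. Dsc3, a desmosomal cadherin, had -0.48 (SE 0.14), and Eda2r, a p53 target of the ectodysplasin pathway, had 1.69 (SE 0.38). DESeq2, which called 141 of all 13796 genes, called both.

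Genes of the keratinocyte stress and wound response varied widely between libraries. The summed TPM of this list was 2075 in WT3, 2264 in EP12 and 2591 in EP09, against 6316 to 13592 in the others. In that list 18 of 19 tested genes had values above 0, with a median of 1.64, and none was called (0.232% of all genes). Krt6a, a keratin induced on wounding, was at 232, 326, 5.01 and 147 CPM in p63alpha and 1968, 1322, 1865 and 22 CPM in p63beta. Krt16 was at 996, 1109, 48.7 and 497 CPM and 2433, 2671, 3459 and 46 CPM. For both genes WT3 and EP12 lay far below the other libraries, and among the remaining 6 each p63beta library exceeded each p63alpha one. Krt6a was called without WT3 and EP12 (edgeR adjusted p = 0.00621), the sole call of this list in the 19 other settings, and Krt16 was not (adjusted p = 0.0881). The list's median was 1.75 without WT3 and EP12, 1.08 without KO2 and 0.90 in the 02HZ libraries alone. Early response genes, which dissociation of tissue can induce, had a median of 0.55 with 16 of 17 values above 0, and none was called. The part of these differences between libraries in the other results was not tested.

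All 14 melanocyte genes had log2 fold changes above 0, where 49.3% of all genes had, and none was called by edgeR. Their median was 1.05, and 9 had an unadjusted p under 0.05, as did 4.64% of all genes. DESeq2, which called 141 of all 13796 genes, called 3 of them, Dct, Ednrb and Tyrp1 (adjusted p = 0.011, 0.00114 and 0.0478), and no other setting called any. Dct, which acts in melanin synthesis, was at 74.4, 128, 64.5 and 123 CPM in p63alpha and 233, 209, 177 and 171 CPM in p63beta, without overlap. Pmel, the melanosome fibre protein, was at 34.5, 66.7, 27.9 and 51.6 CPM and 127, 108, 89.6 and 57.7 CPM, where the groups overlapped. The summed TPM of the list was 96.0 to 279 in p63alpha and 283 to 416 in p63beta. In bulk RNA, more cells of a type and more RNA per cell cannot be told apart. T cell genes had a median of -0.50 with 0 of 9 values above 0 and none called. This median was -0.14 without EP09, -0.24 without KO2, -0.28 without EP10 and -1.25 without EP12, and -0.07 without EP09 and EP11. Their summed TPM was highest in EP09 (114) and EP12 (72.2), against 22.2 to 39.4 in the others. Fibroblast genes had a median of -0.57, which became 0.10 without EP09, -0.96 without EP08, -0.90 without KO2 and -1.10 without EP12. Hair keratins had a median of -1.62 with EP09 and 1.93 without it.

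**Figure D4:**
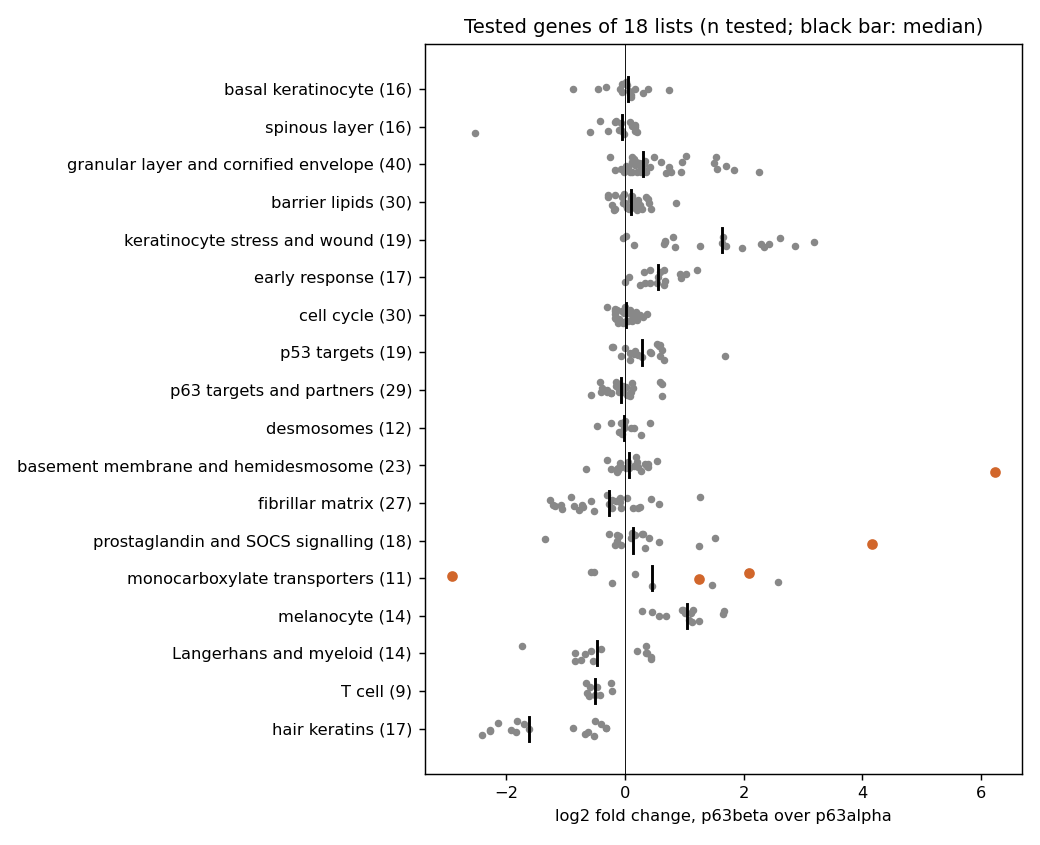
Log2 fold changes, p63beta over p63alpha, of the tested genes of 18 lists, with the number tested in brackets, called genes in orange and the median as a black bar. The 14 melanocyte genes lie above 0 with a median of 1.05, and the hair keratin median of -1.62 turns to 1.93 without EP09.

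Fits within batches gave fewer calls. The 02HZ libraries alone, 3 and 3, gave 8 called genes out of 13790: Nid2, Npbwr1, Stk32a, Idh1, Emb, D630023F18Rik, Cpz and Sncg, all of them among the 32. The pair of WT3 and KO2 has 1 library per genotype and so no test. The sign of the 32 within each batch is fixed by their choice, since their groups do not overlap, so only sizes are compared. The pair difference was computed with a prior count of 2, which the 02HZ fit did not use. That prior pulls the pair difference toward 0 for genes near 0 counts. Sizes of such genes are therefore unlike measures, as for Myot at 10.4 in 02HZ and 5.81 in the pair. For Nid2 the 02HZ log2 fold change was 6.24 (SE 0.35) and the difference within the pair was 6.19. For Idh1 these values were 1.77 (SE 0.17) and 2.08, and for Emb 2.0 (SE 0.19) and 2.39. Ptgs2 gave 3.81 (SE 0.57) and 6.20. Of the 50 genes with the lowest p in 02HZ, 48 differed in the same direction in the pair and 41 did so by at least 2-fold. Over all genes 50.7% had the same direction, and 17.1% differed at least 2-fold in the pair in either direction. With batch as a term in the fit 38 genes were called, 29 of them among the 32.

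**Figure D5:**
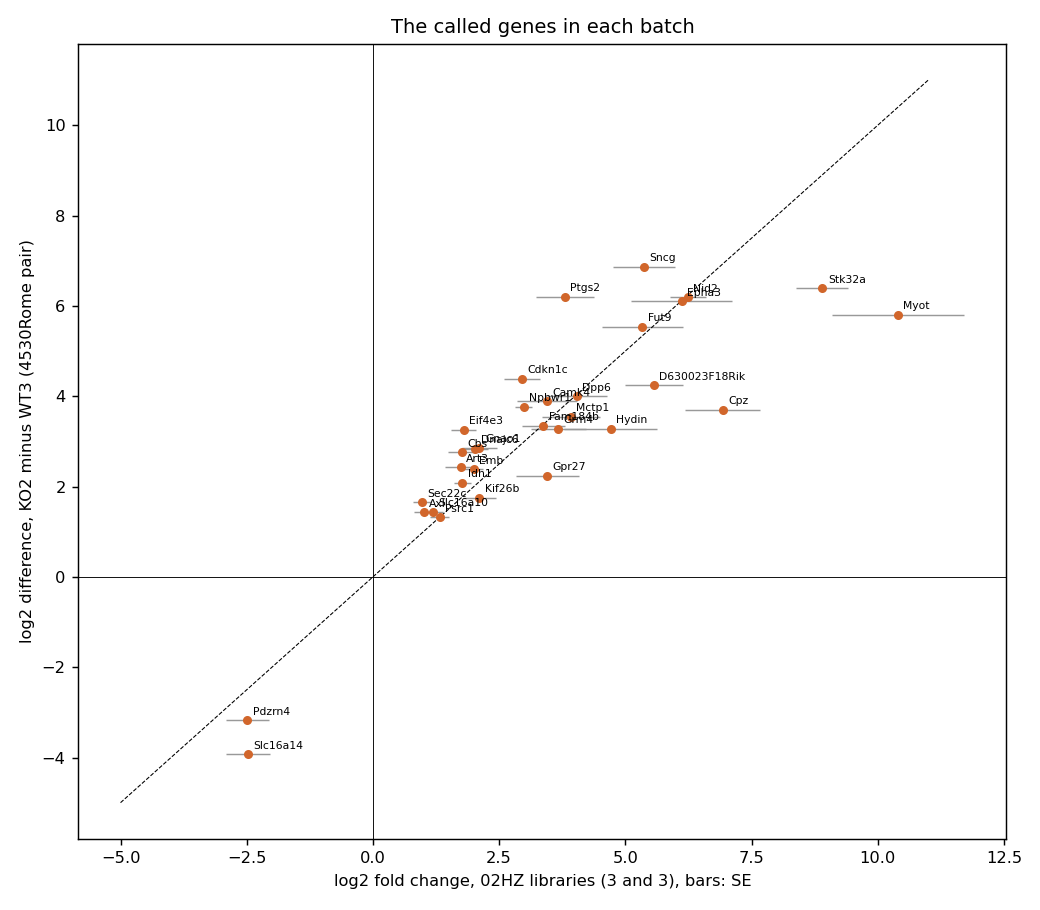
Log2 fold change in the 3 and 3 libraries of 02HZ (horizontal, bars: SE) against the log2 difference of KO2 minus WT3, the pair of the other batch (vertical), for the 32 called genes; the dashed line marks equal values. The shared sign follows from the choice of these genes, and the distance from the dashed line shows how far the sizes differ, as for Ptgs2 at 3.81 and 6.20.

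Single transcripts added little to the gene sums. edgeR tested 18270 transcripts and called 10 (0.0547%), 8 higher and 2 lower. Of these, 3 belonged to Trp63 and the other 7 to Nid2, Stk32a, Npbwr1, Idh1, Emb, Cdkn1c and Fam184b, 1 transcript each. Leaving out EP07 gave 5 called transcripts. The third Trp63 transcript called was a gamma-ending one, at 8.89, 11.3, 8.19 and 14.1 TPM in p63alpha and 0 in p63beta, at least 99.0-fold lower against 3 counts per library. A second gamma-ending transcript was at 14.4, 19.2, 18.7 and 48.1 TPM in p63beta, and summed gamma-ending TPM was 8.19 to 14.1 in p63alpha and 14.4 to 48.1 in p63beta. How reads were split between these 2 gamma-ending transcripts is an estimate, and the fall of the first alone rests on it. Transcript usage within a gene differed in 2 of 2993 genes (0.0668%), Trp63 (adjusted p = 8.46e-12) and Banp (adjusted p = 4.64e-06), by edgeR's diffSpliceDGE. Both stayed called when any 1 library was left out, while the count became 5 without EP07, 13 without WT3, 7 without EP09, 9 without KO2, 8 without EP10 and 7 without EP12. Banp encodes a nuclear matrix protein that binds DNA. One Banp transcript was at 0.441, 1.08, 2.05 and 1.45 TPM in p63alpha and 0 in p63beta, and another was at 0 in p63alpha and 1.73, 0.628, 0.567 and 1.04 TPM in p63beta. These levels are low, and neither transcript of Banp was called on its own (edgeR adjusted p = 0.145 for each).

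Cultured keratinocytes of the same genotypes, 3 libraries each, were counted separately and are set beside epidermis as values. Of the 32 genes, 28 were tested there and 5 were called: Nid2, Npbwr1, D630023F18Rik, Fut9 and Grm4, where 14 of 13820 genes (0.101%) were called in all. Nid2 was at 0.772 ± 0.222 CPM in p63alpha keratinocytes and 108 ± 15.1 CPM in p63beta ones (SD, n = 3), a log2 fold change of 7.16 (SE 0.24, edgeR adjusted p = 0.000847). Stk32a had a log2 fold change of 2.56 (SE 1.19) in keratinocytes and Epha3 of 1.01 (SE 0.88), both uncalled. Ptgs2 was abundant in keratinocytes of both genotypes, at 1796 ± 219 and 2335 ± 134 CPM (SD, n = 3). Kif26b had a log2 fold change of -0.38 (SE 0.25) in keratinocytes. Trp63, counted as a whole gene and not called in epidermis, was called in keratinocytes. It was at 184 ± 7.33 CPM in p63alpha and 363 ± 23.9 CPM in p63beta keratinocytes (SD, n = 3). Its log2 fold change there was 0.99 (SE 0.085, edgeR adjusted p = 0.0297), beside 0.55 in epidermis. The difference between the effects was itself tested with an interaction term in edgeR, which called 0 of 14737 genes, while 620 had an unadjusted p under 0.05. The smallest adjusted p was 0.368, shared by D630023F18Rik, Pdzrn4 and Kif26b among the called genes.

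Promoters of the called genes were searched for short motifs, as a description of sequence only. RefSeq promoters (GRCm38.p6), 250 bases before to 50 after the start, were matched for 22 of the 32 genes. The p53 family decamer was found on either strand in 7 of these 22, Art3, Cpz, D630023F18Rik, Dpp6, Kif26b, Pdzrn4 and Sncg, and in 8.45% of 10925 tested genes with a promoter. A pair of its cores was found in 3 of 22 against 6.5%. TGANTCA was found in 2 against 6.68%, CACGTG in 4 against 11.5% and CCAAT in 8 against 42.7%. The matches of 3 genes that rose or fell are shown because their genes moved in different directions, with the decamer in capitals. They lie at chr14:34374698-34374827 for Sncg (minus strand), chr5:35525717-35525846 for Cpz (minus strand) and chr15:92396562-92396691 for Pdzrn4 (plus strand). The decamer begins 98, 160 and 188 bases before the start of Sncg, Cpz and Pdzrn4.
Sncg: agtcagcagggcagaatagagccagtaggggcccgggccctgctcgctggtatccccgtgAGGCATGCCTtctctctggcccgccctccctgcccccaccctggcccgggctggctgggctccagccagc
Cpz: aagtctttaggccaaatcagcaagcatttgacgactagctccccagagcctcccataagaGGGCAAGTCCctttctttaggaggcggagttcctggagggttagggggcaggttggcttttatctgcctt
Pdzrn4: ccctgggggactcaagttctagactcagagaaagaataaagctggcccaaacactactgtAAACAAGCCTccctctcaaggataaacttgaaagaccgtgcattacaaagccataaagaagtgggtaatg
Sncg and Cpz rose and Pdzrn4 fell, so the match was present with either direction, and binding at these letters was not measured.

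The authors' deposited table for epidermis, made with DESeq2, lists 144 genes at an adjusted p under 0.05 out of 16071 with a value (0.896%), 109 higher and 35 lower in p63beta. All 32 genes called here are among them in the authors' deposited table. Of the 144, 137 were tested here, and edgeR did not call 105 of these. For Nid2 the authors' deposited table gives a log2 fold change of 6.24 and for Slc16a14 -2.93.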

How the data were processed

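The authors deposited estimated counts and TPM from Salmon per gene and transcript (24411 genes, 35034 transcripts) for epidermis, and read counts from featureCounts for keratinocytes, per the file headers. Their deposited DESeq2 table gave the log2 fold change and adjusted p-value quoted as the authors' own. Per the submitters' processing notes the build was mm10; versions of Salmon and DESeq2 are not given in the sources used here. Another 20 per-library columns were not used.

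Counts were rounded and fitted in edgeR 4.0.16 (R 4.3.3): TMM, filterByExpr, robust quasi-likelihood test, Benjamini-Hochberg adjustment, threshold 0.05. CPM are TMM-scaled. Transcript usage was tested with diffSpliceDGE. The fits were tested on simulated data, with gene and transcript changes placed only where counts were high, so genes near 0 counts were not covered. DESeq2 1.42.0 and limma 3.58.1 served as alternatives. Members and the 44 gene lists were chosen with earlier results of these data known. The named genes were Trp63, every called gene and, per list, the lowest p and highest levels, of which the text gives a part picked after values were seen. The rule named the batch of WT3 and KO2 for a fit within 1 batch; it holds 1 library per genotype, so the 02HZ libraries were fitted and that pair was set beside them.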

Additional observations from a re-analysis of the deposited data

Results flagged for a closer look

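A library far from the other 3 of its genotype was found in 5 of 80 groups checked, where chance alone marks about 1 group in 20. Dpp6 was at 19.9 CPM in EP12, against 7.12 to 8.35 CPM in the other p63beta libraries, and at 1.14 CPM in EP09, against 0.468 to 0.482 CPM in the other p63alpha libraries. Stk32a was at 0 CPM in EP09, against 0.0294 to 0.0334 CPM in the other p63alpha libraries. Hydin was at 0.0588 CPM in EP07, against 0 in the other p63alpha libraries. Over all p63alpha libraries Stk32a had 3 counts and Hydin 2, so the flags of these genes rest on very few reads. The summed TPM of the hair keratin list was 969 in EP09, against 18.7 to 62.1 in the other p63alpha libraries.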

How the results depend on the processing

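No paired analysis was possible because the epidermis columns carry no replicate numbers. The labelled numbers of the keratinocyte libraries allow a replicate block, which gave 37 called genes in place of 14. The genes called in epidermis (32) became 141 with DESeq2, 15 with a 2-fold minimum change, 8 in the 02HZ libraries alone and 10 without EP09 and EP11, and 10 to 28 when 1 library was left out. Transcripts called (10) became 112 with DESeq2, 17 with limma on log2(TPM + 0.1), 6 with the 2-fold minimum and 5 in 02HZ alone, and 5 to 11 without 1 library. Usage calls (2) became 20 in 02HZ alone and 1 (Trp63) with limma's diffSplice, and 2 to 13 without 1 library. Keratinocyte calls ranged from 1 to 4 without 1 library. The Trp63 alpha-ending share differed by -80.9 points in 02HZ alone, and by -80.2 to -77.0 points without 1 library; designs of 3 and 4 or 3 and 3 libraries cannot reach p below 0.0571 or 0.1. The causes were not tested.

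Of the 32 called genes, 10 kept their call without any 1 library, and 6 kept it in all 19 other settings: Nid2, Stk32a, Npbwr1, Idh1, Emb and D630023F18Rik. The planned fit of the batch of WT3 and KO2 alone gave no value, with 1 library per genotype. The settings 02HZ alone, without WT3 and EP12, and without EP09 and EP11 were chosen after seeing the data. Depth limits genes under 1 CPM, where a few counts decide a value.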
